A study of Mus musculus with 21 samples.

Results

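The 21 libraries of this study were selected on the measured level of 1 gene, S100a5, into 2 classes, to ask which other genes follow the amount of olfactory bulb tissue in a brain sample. S100a5 encodes a calcium-binding protein of olfactory sensory neurons. A library with 10 or more CPM (counts scaled to library size, here with trimmed mean of M-values, TMM) of S100a5 was placed in the S100a5-high class, which held 7 of the 21 libraries, and the other 14 formed the S100a5-low class. Because S100a5 chose the classes, its own level is given only as a description. The libraries were made by 3' mRNA sequencing with unique molecular identifiers from the anterior right hemisphere of C57Bl6/J mice aged 90 to 114 days. The mice were 9 eIF2B HOM animals, homozygous for a constitutive Eif2b5 R191H knock-in that models vanishing white matter disease, and 12 wild-type animals, in 2 batches as labelled, and no drug treatment is given in their labels. Whether the olfactory bulb was included in a dissection is not given in the sources used here. The S100a5-high class held 2 eIF2B HOM and 5 wild-type mice, and the S100a5-low class held 7 eIF2B HOM and 7 wild-type mice. The S100a5-high class took 6 of the 12 mice of batch 1 and 1 of the 9 of batch 2.

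In the mouse olfactory system, sensory neurons lie in the nasal epithelium and send their axons into the glomeruli of the olfactory bulb. There they contact mitral and tufted cells, the glutamatergic output neurons of the bulb. Periglomerular interneurons around the glomeruli and granule cells in the core of the bulb provide inhibition. The bulb is the most anterior structure of the forebrain, and its granule and periglomerular cells are replenished in the adult by neuroblasts from the wall of the lateral ventricle. Neurons of the striatum share several transcription factors and GABAergic genes with bulb granule cells.

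Total counts were 727018 to 2215650 in the S100a5-high libraries (median 1177605) and 773134 to 3100141 in the S100a5-low libraries (median 1270017). Counts of 100 or more are rounded in the deposited table to 2 significant digits. No pair of libraries was identical, and nothing in the labels pairs the mice. P-values measure the spread between these mice.

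S100a5 (ENSMUSG00000001023, chr3:90608523-90611780, GRCm38, plus strand) stood at 98.0 and 49.8 CPM in the S100a5-high eIF2B HOM replicates 1 and 3. It stood at 135, 112, 110, 33.8 and 37.9 CPM in wild-type replicates 3, 5, 6, 8 and 10. In the S100a5-low libraries it ranged from 0 to 9.72 CPM with a median of 0.661 CPM, and 4 of these 14 libraries had no count. The library just inside the threshold was wild-type replicate 8 at 33.8 CPM, and the one just outside was wild-type replicate 2 at 9.72 CPM, followed by eIF2B HOM replicate 6 at 3.00 CPM. Within the S100a5-high class 4 libraries lay at 98.0 to 135 CPM and 3 at 33.8 to 49.8 CPM, and wild-type replicate 2 lay between them and the remaining S100a5-low libraries.

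The promoters of S100a5 and of 3 genes that followed it are shown because S100a5 set the classes and the other 3 were among the genes called between them, 1 calcium-binding and 1 membrane protein of sensory neurons and 2 genes of mitral and tufted cells. Each window runs from 250 bases before to 50 bases after the RefSeq start site on GRCm38.p6, 5' to 3' on the gene's strand. Capitals mark CCCNNGGG, the core letters of sites bound by the early B-cell factors of olfactory neurons. The windows are chr3:90608272-90608571 for S100a5, chr3:53488457-53488756 for Stoml3, chr9:118477939-118478238 for Eomes and chr19:4003135-4003434 for Doc2g, all on the plus strand.
S100a5: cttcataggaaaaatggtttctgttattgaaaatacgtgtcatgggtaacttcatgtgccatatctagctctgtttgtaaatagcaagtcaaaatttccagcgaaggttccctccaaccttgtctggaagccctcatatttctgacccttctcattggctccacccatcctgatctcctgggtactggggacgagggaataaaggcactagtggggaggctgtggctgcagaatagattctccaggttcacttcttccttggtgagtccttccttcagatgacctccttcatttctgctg
Stoml3: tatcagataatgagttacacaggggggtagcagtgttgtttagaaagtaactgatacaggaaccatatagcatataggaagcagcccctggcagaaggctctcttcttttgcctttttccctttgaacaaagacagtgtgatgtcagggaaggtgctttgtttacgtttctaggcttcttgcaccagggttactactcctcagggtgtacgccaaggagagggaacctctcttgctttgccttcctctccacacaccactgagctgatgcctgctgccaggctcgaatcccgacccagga
Eomes: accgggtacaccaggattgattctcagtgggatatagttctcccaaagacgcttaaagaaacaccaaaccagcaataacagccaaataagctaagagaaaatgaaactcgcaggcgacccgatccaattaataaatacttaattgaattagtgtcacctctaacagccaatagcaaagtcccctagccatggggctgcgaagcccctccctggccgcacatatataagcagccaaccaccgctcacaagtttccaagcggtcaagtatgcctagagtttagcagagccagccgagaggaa
Doc2g: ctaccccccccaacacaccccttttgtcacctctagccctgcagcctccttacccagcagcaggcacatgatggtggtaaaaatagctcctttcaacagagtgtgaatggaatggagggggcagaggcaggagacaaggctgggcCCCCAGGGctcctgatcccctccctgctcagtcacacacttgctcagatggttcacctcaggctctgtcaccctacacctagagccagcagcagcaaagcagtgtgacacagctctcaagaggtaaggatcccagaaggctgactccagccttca

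RefSeq windows were found for 6 of 7 genes searched, namely S100a5, Stoml3, Eomes, Doc2g, Nmb and Acbd7, and Omp is named only. CCCNNGGG, whose letters read the same on both strands, was present in 2 of the 6 windows, those of Doc2g and Acbd7, and in 13.7% of all 32851 promoter windows of this length (18.4% of those of the genes tested). In Doc2g its first base lay 105 bases before the start site, and in Acbd7 14 bases before it. TAATTA, a core recognised by many homeodomain proteins and also the same on both strands, was present in 0 of the 6 windows and in 5.29% of all windows (2.60% of those of the genes tested). A match is a description of the letters only.

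With genotype and batch in the model, Stoml3, Omp, Eomes, Doc2g, Nmb and Acbd7 were higher in the S100a5-high libraries. The first 2 are genes of olfactory sensory neurons and the next 3 are genes of mitral and tufted cells. They were 6 of 12301 genes tested besides S100a5, or 0.0488% (edgeR quasi-likelihood test, Benjamini-Hochberg adjusted p under 0.05). Stoml3, Omp, Eomes and Acbd7 held 5, 17, 7 and 24 counts in the S100a5-low class. These genes passed the minimum of 50 counts over all libraries only through the S100a5-high class, so their being tested already required a difference. Doc2g and Nmb, with 71 and 134 S100a5-low counts, passed the minimum on that class alone. No gene was lower, 0%, by edgeR, DESeq2 or limma with voomWithQualityWeights. At an unadjusted p under 0.05, edgeR had 313 genes higher and 313 lower, an even split. The median log2 difference over all genes tested was 0.00. In bulk tissue, fewer cells of a type and less RNA per cell cannot be told apart.

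Omp (ENSMUSG00000074006, chr7:98143359-98145502, minus strand) encodes olfactory marker protein, which marks mature olfactory sensory neurons. It stood at 63.7 and 27.7 CPM in the S100a5-high eIF2B HOM replicates 1 and 3, and at 79.3, 69.2, 70.5, 19.1 and 16.7 CPM in wild-type replicates 3, 5, 6, 8 and 10. In the S100a5-low libraries it ranged from 0 to 6.07 CPM with a median of 0 CPM, and 6 of the 14 had any count. The classes did not overlap, and the highest low library was wild-type replicate 2, the one just below the S100a5 threshold. The log2 difference was 4.83 ± 0.48 (SE, n = 7 against 14, edgeR adjusted p = 1.99e-05), and Omp too, with 17 counts in the S100a5-low class, passed the count minimum only through the S100a5-high class. Within batches it was 4.76 ± 0.66 in batch 1 alone (adjusted p = 0.0593) and 4.87 ± 0.82 in batch 2 alone (adjusted p = 0.0326) by edgeR. Batch 2 has a single S100a5-high library, so every value of batch 2 alone rests on 1 library whose spread is assumed to be that of the others, and is no replicate of the result. Omp lies within Capn5 on the same strand, and Capn5 itself differed by -0.17 ± 0.22 on the log2 scale (adjusted p = 1.000). The ratio of Omp to S100a5 counts was 0.441 to 0.650 over the 7 S100a5-high libraries, which is a description, since S100a5 chose the classes.

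Stoml3 (ENSMUSG00000027744, chr3:53488653-53508502, plus strand) encodes a stomatin-like membrane protein of sensory neurons. Its promoter is printed above. It stood at 19.6 and 9.69 CPM in the S100a5-high eIF2B HOM replicates 1 and 3, and at 17.4, 19.6, 12.8, 3.67 and 5.57 CPM in wild-type replicates 3, 5, 6, 8 and 10. In the S100a5-low libraries the highest value was 0.852 CPM and the median 0 CPM, and the 14 libraries together held 5 counts, against 110 counts in the 7 S100a5-high libraries. The classes did not overlap. Stoml3 passed the minimum of 50 counts only through the S100a5-high class, so that its being tested already required a difference. The log2 difference was 4.96 ± 0.51 (SE, edgeR adjusted p = 2.33e-08). With so few counts in the S100a5-low libraries its size depended on the libraries used, with 6.92 ± 0.86 in batch 1 alone (adjusted p = 0.00175) and 3.81 ± 0.97 in batch 2 alone (adjusted p = 0.665) by edgeR.

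**Figure D1:**
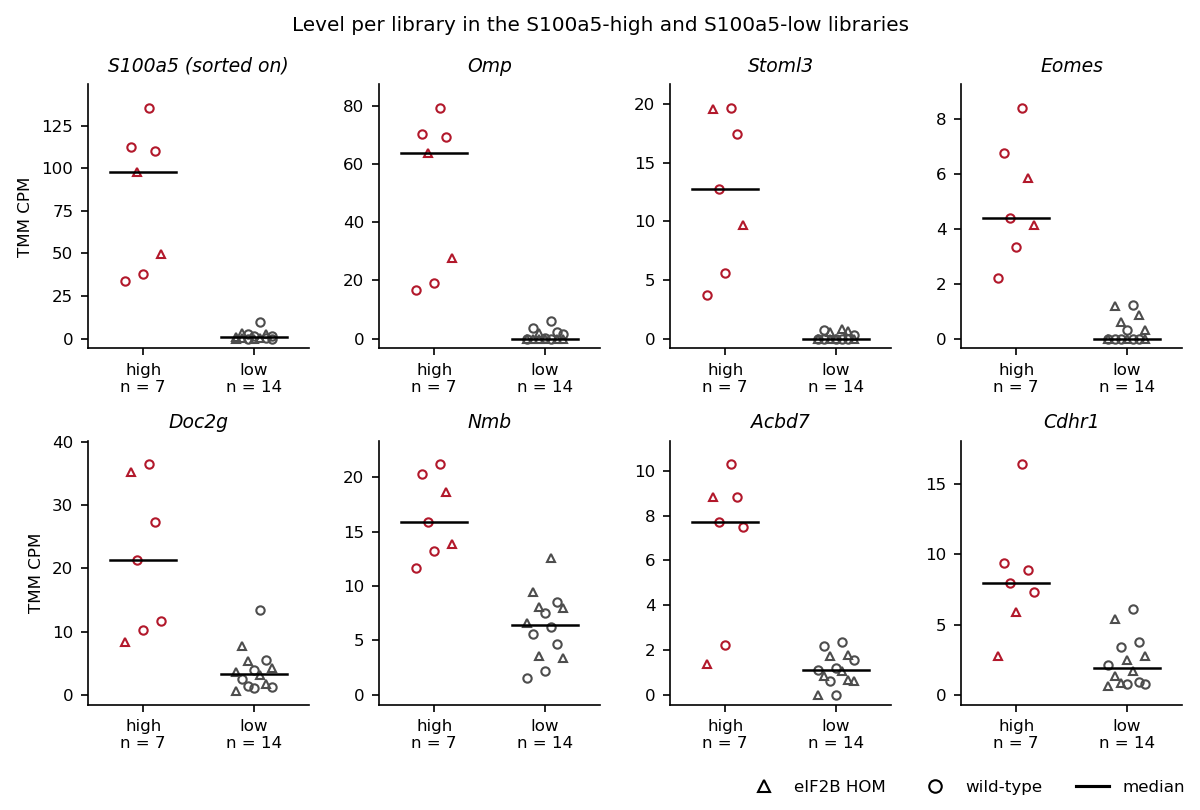
TMM CPM of S100a5, on which the libraries were sorted, and of 7 other genes in each library, with 7 S100a5-high libraries at the left of each panel and 14 S100a5-low libraries at the right. Triangles are eIF2B HOM mice, circles are wild-type mice, and lines are medians. Omp, Stoml3 and Eomes show no overlap between classes, whereas Doc2g, Nmb, Acbd7 and Cdhr1 do.

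Of the mitral and tufted cell genes, Eomes (ENSMUSG00000032446, chr9:118478212-118486132), the T-box transcription factor Tbr2, stood at 5.88 and 4.15 CPM in the S100a5-high eIF2B HOM replicates 1 and 3. In wild-type replicates 3, 5, 6, 8 and 10 it stood at 6.77, 8.41, 4.40, 2.20 and 3.34 CPM. In the S100a5-low libraries it reached at most 1.21 CPM with a median of 0 CPM, and 7 counts were found over 6 of them. All 7 S100a5-high libraries lay above every S100a5-low library. The log2 difference was 3.43 ± 0.56 (SE, edgeR adjusted p = 0.000949), but with 44 of its 51 counts in the S100a5-high class Eomes passed the minimum of 50 counts only through that class. The edgeR values for Eomes were 3.50 ± 0.69 in batch 1 alone (adjusted p = 0.0309) and 3.89 ± 1.21 in batch 2 alone (adjusted p = 0.908).

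Doc2g (ENSMUSG00000024871, chr19:4003321-4007005) encodes a C2-domain protein of the Doc2 family. It ranged from 8.31 to 36.5 CPM in the S100a5-high libraries (median 21.3 CPM) and from 0.643 to 13.4 CPM in the S100a5-low libraries (median 3.36 CPM). The highest S100a5-low value was again that of wild-type replicate 2, and 4 of the 7 S100a5-high libraries lay above all S100a5-low libraries. The log2 difference was 2.09 ± 0.35 (SE, edgeR adjusted p = 0.0075). The edgeR values for Doc2g were 2.02 ± 0.49 in batch 1 alone (adjusted p = 0.391) and 2.17 ± 0.61 in batch 2 alone (adjusted p = 0.816). Without wild-type replicate 10 it was 2.02 and was no longer called (adjusted p = 0.067). Doc2g overlaps another gene model on the same strand that was too low to test.

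Nmb (ENSMUSG00000025723, chr7:80902227-80905076) encodes neuromedin B, a peptide found in tufted cells. It ranged from 11.7 to 21.3 CPM in the S100a5-high libraries (median 15.9 CPM) and from 1.57 to 12.6 CPM in the S100a5-low libraries (median 6.46 CPM), and 6 of 7 S100a5-high libraries lay above all S100a5-low libraries. The log2 difference was 1.34 ± 0.26 (SE, edgeR adjusted p = 0.0171). The edgeR values for Nmb were 1.42 ± 0.28 in batch 1 alone (adjusted p = 0.0329) and 1.28 ± 0.58 in batch 2 alone (adjusted p = 0.944). The call was lost without wild-type replicate 1, 3, 4, 6 or 10, at adjusted p = 0.0553, 0.0505, 0.106, 0.0631 and 0.067. Nmb overlaps Sec11a on the same strand, which differed by -0.08 ± 0.18 on the log2 scale (adjusted p = 1.000).

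Cdhr1, a cadherin-related protein of mitral and tufted cells, lay just over the threshold. It ranged from 2.77 to 16.4 CPM in the S100a5-high libraries (median 7.93 CPM) and from 0.643 to 6.07 CPM in the S100a5-low libraries (median 1.94 CPM). Its log2 difference was 1.74 ± 0.38 (SE, edgeR adjusted p = 0.0657), and with limma voomWithQualityWeights it was called (adjusted p = 0.0468). It was also called without wild-type replicate 2 or 8 or eIF2B HOM replicate 3 or 6, at adjusted p = 0.0337, 0.0421, 0.0285 and 0.0187. The other tested members of this list, Reln, Ntng1 and Slc17a6, had log2 differences of 0.56, 0.36 and 0.22 and did not pass. The 7 tested members of the 11 listed had a median of 1.34, beside 0.00 over all genes. Eomes and Cdhr1 were among them only through their counts in the S100a5-high class. Cdhr1 held 46 counts in the S100a5-low class and 79 in the S100a5-high class. Tbx21, Uncx, Lhx5 and Barhl2 held 2 to 8 counts each and were not tested, and Uncx had 1 count in the S100a5-high and 3 in the S100a5-low libraries, and Barhl2 1 and 5.

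Of the 12 listed olfactory sensory neuron genes, 5 had 50 or more counts over all libraries and were tested, and 2 of them, Omp and Stoml3, rose. The other tested members were Gng13, a G protein gamma subunit, at 0.23, Kirrel2, an adhesion protein, at 0.08, and Adcy3, the adenylyl cyclase of olfactory signalling, at -0.22. None of these 3 passed the test. The 7 members below the count minimum, among them the channel subunits Cnga2 and Cnga4 and the chaperones Rtp1 and Rtp2, held 54 of their 113 counts in the S100a5-high libraries. This share was 47.8% (exact 95% binomial interval 38.3 to 57.4%, counting error only), beside 30.4% of all counts that came from these libraries. The same share for the untested members of the other olfactory lists was 8 of 20 counts (40%) for mitral and tufted cells (interval 19.1 to 63.9%). It was 34.0% of 47 for periglomerular cells (20.9 to 49.3%) and 39.1% of 46 for granule cells (25.1 to 54.6%). The intervals of these other lists include 30.4%, and that of the sensory neuron list does not. None of the intervals covers the spread between mice, so they do not tell the lists apart. Ano2 alone held 47 of the 113 sensory neuron counts, 18 of them in the S100a5-high libraries. Gfy had 4 counts, all in S100a5-high libraries, and Cnga2 had 6 of its 8 counts there.

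The odorant receptor genes, the Olfr family, were near the limit of detection. Of 1138 rows, 113 had any count, and 252 of the 548 counts of the family were in the S100a5-high libraries (46.0%). These libraries held 30.4% of all counts. Olfr287 and Olfr316 held 187 and 82 of these counts, and without them 150 of 279 counts (53.8%) were in the S100a5-high libraries. The summed Olfr level was 16.6 to 37.4 CPM in the S100a5-high libraries (median 27.7 CPM) and 7.55 to 20.5 CPM in the S100a5-low libraries (median 13.8 CPM), and 5 of the 7 S100a5-high libraries lay above all S100a5-low libraries. The 2 receptors with enough counts to test were not called, with log2 differences of 0.21 and 0.82. Counts of members of this family with near-identical copies are uncertain.

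Acbd7, an acyl-CoA-binding domain protein, was on none of the lists. It ranged from 1.38 to 10.3 CPM in the S100a5-high libraries (median 7.73 CPM) and from 0 to 2.36 CPM in the S100a5-low libraries (median 1.09 CPM), and 5 of 7 S100a5-high libraries lay above all S100a5-low libraries. Its log2 difference was 1.98 ± 0.41 (SE, edgeR adjusted p = 0.0342). The edgeR values for Acbd7 were 2.51 ± 0.49 in batch 1 alone (adjusted p = 0.0309) and 0.84 ± 0.91 in batch 2 alone (adjusted p = 0.965). With 24 counts in the S100a5-low class and 62 in the S100a5-high class, it too passed the count minimum through the S100a5-high class alone. Of the 6 genes its call was the least stable: it was lost when any of 11 of the 21 libraries was left out (eIF2B HOM replicate 1, 2 or 4, or wild-type replicate 1, 2, 3, 4, 5, 6, 7 or 12), with adjusted p from 0.0556 to 0.213.

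**Figure D2:**
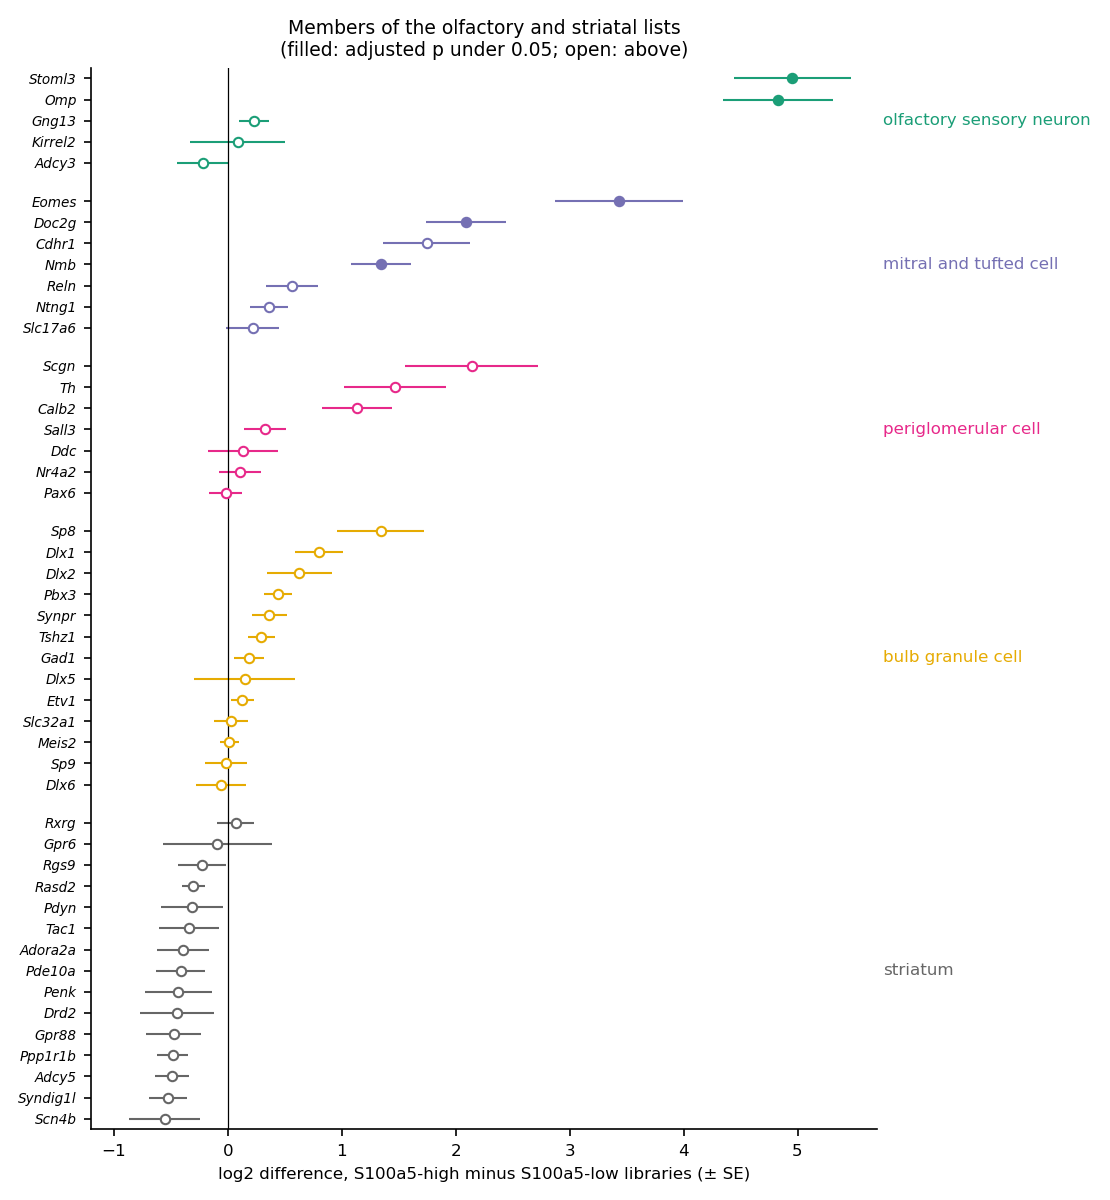
Log2 difference (S100a5-high minus S100a5-low libraries, ± SE) of each tested member of the 4 olfactory lists and of the striatum list, with filled points for an adjusted p under 0.05. Stoml3 and Omp lie near 5, Eomes, Doc2g and Nmb between 1.3 and 3.5, and 14 of 15 striatal genes lie below 0.

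None of the 7 tested periglomerular genes and none of the 13 tested granule cell genes passed. At an unadjusted edgeR p under 0.05, 3 and 6 of them were higher, beside 313 higher of all 12301 genes tested. Secretagogin (Scgn), a calcium sensor of bulb interneurons, ranged from 0.735 to 6.17 CPM in the S100a5-high libraries and from 0 to 2.52 CPM in the S100a5-low libraries. Its log2 difference was 2.14 ± 0.58 (SE, edgeR adjusted p = 0.447). With 17 of its 55 counts in the S100a5-low class, Scgn passed the count minimum only through the S100a5-high class. Tyrosine hydroxylase (Th), which marks dopaminergic periglomerular cells, ranged from 1.47 to 7.48 CPM in the S100a5-high and from 0 to 3.14 CPM in the S100a5-low libraries. Its log2 difference was 1.47 ± 0.45 (SE, adjusted p = 0.587). With 39 counts in the S100a5-low class, Th also needed its S100a5-high counts to pass the minimum. Calretinin (Calb2) ranged from 7.35 to 54.8 CPM in the S100a5-high and from 10.2 to 28.3 CPM in the S100a5-low libraries, and 5 of 7 S100a5-high libraries lay above all S100a5-low libraries. Its log2 difference was 1.13 ± 0.31 (SE, edgeR adjusted p = 0.531). Its lowest value among all libraries was in wild-type replicate 8, an S100a5-high library, and without that library Calb2 was called (adjusted p = 0.00206). In the other 20 fits that left out 1 library it was not called. The other tested periglomerular members, Sall3, Ddc, Nr4a2 and Pax6, had log2 differences of 0.33, 0.13, 0.10 and -0.02. Ddc and Nr4a2, like Th, are genes of dopaminergic cells.

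Among granule cell genes, the transcription factors Sp8 and Dlx1 had log2 differences of 1.34 ± 0.38 and 0.80 ± 0.21 (SE, edgeR adjusted p = 0.469 and 0.408). Dlx1 likewise was called without wild-type replicate 8 (adjusted p = 0.0145), which had 9.55 CPM, below all S100a5-low libraries. In the other 20 fits that left out 1 library Dlx1 was not called. Gad1 and Slc32a1, needed for GABA synthesis and its vesicular loading, were at 0.19 and 0.03, and the transcription factor Meis2, which striatal neurons also express, was at 0.01. The list had 11 of 13 members above 0 with a median of 0.19, and the periglomerular list had 6 of 7 above 0 with a median of 0.33, beside 0.00 over all genes. Sp8, Scgn and Th were among these members only through their counts in the S100a5-high class, Sp8 having 43 in the S100a5-low class.

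The mitral and tufted list summed to 82.3 to 140 CPM in the S100a5-high libraries (median 124 CPM) and 41.7 to 92.3 CPM in the S100a5-low libraries (median 70.3 CPM). The granule list summed to 1162 to 1589 CPM in the S100a5-high libraries (median 1426 CPM) and 1042 to 1393 CPM in the S100a5-low libraries (median 1312 CPM). Meis2, which is not particular to the bulb, alone had medians of 607 and 609 CPM within that sum. None of these sums is adjusted for genotype or batch, and each follows its most abundant genes. The striatum list, 15 genes of medium spiny neurons, summed to 779 to 1728 CPM in the S100a5-high libraries (median 1083 CPM) and 918 to 1956 CPM in the S100a5-low libraries (median 1468 CPM).

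**Figure D3:**
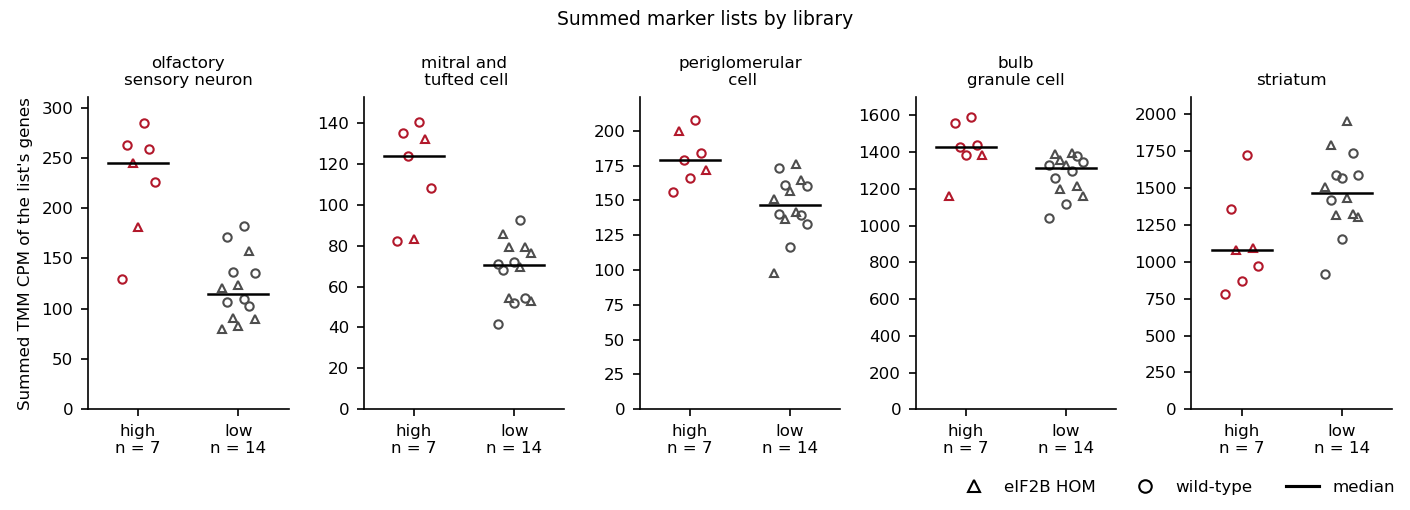
Summed TMM CPM of 4 olfactory lists and of the striatum list in each library, S100a5-high libraries (n = 7) at the left of each panel and S100a5-low libraries (n = 14) at the right, with triangles for eIF2B HOM mice, circles for wild-type mice and lines for medians. The olfactory sensory neuron and mitral and tufted sums overlap in part, with 5 of 7 S100a5-high libraries above all S100a5-low libraries in each, and the striatum medians are 1083 and 1468 CPM. Within the sensory neuron sum Gng13, which was not called, has medians of 135 and 91.5 CPM. In wild-type replicate 8 it makes up 235 of 285 CPM. The sums are not adjusted for genotype or batch.

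Striatal genes ran in the other direction without passing the test. Of 15 tested, 14 had a log2 difference below 0, with a median of -0.42 beside 0.00 over all genes, and none was called. At an unadjusted edgeR p under 0.05, 4 of the 15 were lower, beside 313 lower of all 12301 genes tested. Ppp1r1b, which encodes the dopamine-regulated phosphatase inhibitor DARPP-32, ranged from 106 to 223 CPM in the S100a5-high libraries and from 163 to 330 CPM in the S100a5-low libraries, with a log2 difference of -0.48 ± 0.14 (SE, edgeR adjusted p = 0.469). Adcy5, the striatal adenylyl cyclase, and Rasd2, a striatal small GTPase, were at -0.49 and -0.30. In batch 1 alone the striatal median was -0.64 with 15 of 15 below 0, and in batch 2 alone, where a single library was S100a5-high, it was 0.20 with 4 of 15 below 0. Nptx2, a neuronal pentraxin outside this list, had the smallest p of the genes that were lower, at -0.96 ± 0.25 (SE, edgeR adjusted p = 0.342).

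The remaining lists, of cortex, hippocampus, thalamus, hypothalamus, choroid plexus, meninges, myelin, astrocytes, microglia, endothelium, blood and olfactory ensheathing glia, had no member called, and their medians ran from -0.07 to 0.20. Olfactory ensheathing glia, which wrap the sensory axons, had 3 tested members, Frzb, Fabp7 and Npy, at 0.20, 0.41 and 0.20. Of 8 neuroblast and dividing cell genes none was called and 6 were above 0, with a median of 0.42. Top2a, on this list, was at 1.11, although its median was 2.77 CPM in the S100a5-high and 3.89 CPM in the S100a5-low libraries. Only 1 S100a5-high library, at 24.5 CPM, lay above all S100a5-low libraries for this gene. Doublecortin (Dcx) was at 0.43 and the transcription factor Sox11 at -0.25, and the list summed to a median of 1096 CPM in the S100a5-high and 1113 CPM in the S100a5-low libraries. Of the 14 tested markers of the integrated stress response (ISR) none was called for the class, with 11 above 0 and a median of 0.11. Atf5 and Trib3, 2 of the 14, were higher at an unadjusted edgeR p under 0.05, beside 313 higher of all 12301 genes tested. The cell division gene Mki67, at 2.59 ± 0.55 (SE, edgeR adjusted p = 0.0508), rested on wild-type replicate 10, which had 17.8 CPM, against 0 to 1.96 CPM in the other 6 S100a5-high libraries and 0 to 3.41 CPM in the S100a5-low libraries, and without that library it was -0.13. It was called without eIF2B HOM replicate 2, 3, 5, 6 or 9 or wild-type replicate 2, 4 or 8, with adjusted p from 0.00574 to 0.049.

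The next comparison asked whether the S100a5 class went with genotype or another label, and no label passed the test. S100a5-high libraries were 2 of 9 eIF2B HOM and 5 of 12 wild-type mice (Fisher's exact test, two-sided p = 0.642, adjusted over 4 labels 0.642). They were 6 of 12 in batch 1 and 1 of 9 in batch 2 (exact p = 0.159, adjusted 0.530), and 3 of 12 female and 4 of 9 male mice (exact p = 0.397, adjusted 0.530). Mean age was 105 days in the S100a5-high and 101 days in the S100a5-low class (exact permutation test, two-sided p = 0.272, adjusted 0.530). With 21 mice, differences of these sizes were not detectable, and the shares are not shown to be equal.

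With the S100a5 class in the model, 206 genes were higher in eIF2B HOM mice (1.67% of 12301) and 49 lower (0.398%). Without it, 212 were higher (1.72%) and 54 lower (0.439%). Of the genes called without the class, 248 were also called with it, 18 were lost and 7 were gained. Among genes called in either model none changed sign, and the largest shift of a log2 difference was 0.26, in Gdf15. All 14 ISR markers, a pathway activated when eIF2B function is lost, were higher in eIF2B HOM mice both with and without the class, with median log2 differences of 2.28 and 2.26. Atf5, an ISR transcription factor, was at 3.11 ± 0.11 with the class and 3.02 ± 0.12 without it.

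None of the 6 genes that followed S100a5 was called for genotype in either model. Omp had a log2 difference between eIF2B HOM and wild-type mice of -0.47 ± 0.42 with the class in the model and -0.92 ± 0.93 without it (SE). For Stoml3 the values were 0.31 ± 0.43 and -0.41 ± 0.91. The SE of both genes was smaller with the class in the model, which follows from their having been picked for following the class. No gene was called for a difference of the class effect between genotypes (0 called by edgeR, DESeq2 and limma with voomWithQualityWeights, with 355 higher and 401 lower at an unadjusted edgeR p under 0.05 and a smallest adjusted p of 0.258). Only 2 S100a5-high libraries were eIF2B HOM, both of batch 1, so the class effects are not shown to be alike. For Omp this difference was 1.40 ± 1.29 (SE).

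**Figure D4:**
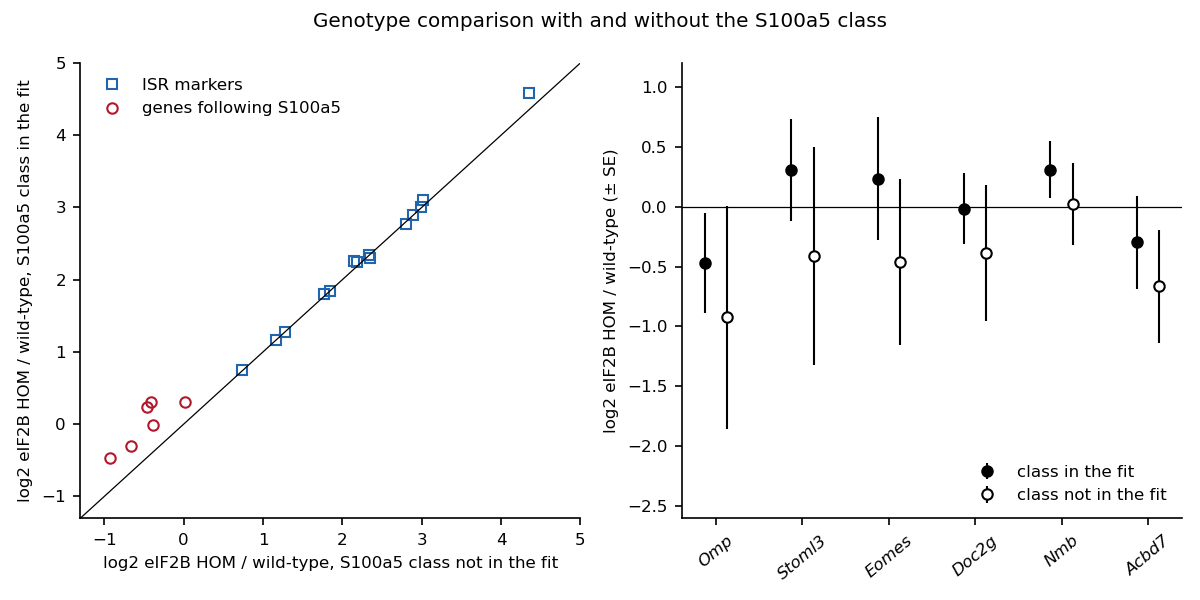
Left, log2 difference between eIF2B HOM and wild-type mice with the S100a5 class in the model (vertical) against without it (horizontal) for 14 ISR markers and the 6 genes that followed S100a5, with the line of equality. Right, the same difference ± SE for the 6 genes, with filled points for the model with the class and open points without it. ISR markers lie on or close to the line, the farthest being Trib3 at 4.59 with the class and 4.35 without. The SE of Omp, a gene picked for following the class, is 0.42 with the class and 0.93 without.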

How the data were processed

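Brain RNA of 21 mice (9 eIF2B HOM, 12 wild-type) was sequenced with a 3' protocol with unique molecular identifiers. The authors trimmed reads, aligned them with STAR to GRCm38.p6 and counted genes with featureCounts. Versions in the submitters' processing notes are 1.6.2 for Subread, 4.2 for R and 3.40.2 for edgeR. The table of raw counts deposited by the authors covers 22058 protein-coding genes, and its values of 100 or more are rounded to 2 significant digits. The deposited CPM sheet was not used.

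TMM CPM of S100a5 set the classes (10 CPM). Genes with 50 or more counts over all libraries (12302) were fitted with edgeR 4.0.16 in R 4.3.3 (TMM, robust quasi-likelihood, genotype, batch and class as terms), and Benjamini-Hochberg adjustment ran over the 12301 genes besides S100a5, with adjusted p under 0.05 as the threshold. The SE is the size of the log2 difference divided by the square root of the F statistic. The study's own fit used limma with genotype, sex and age. Alternatives were DESeq2 1.42.0, limma 3.58.1 (voomWithQualityWeights), upper-quartile and RLE factors, 3 other filters, other covariates, thresholds of 5 and 20 CPM, S100a5 as a continuous term, each batch and genotype alone, and leaving out each library. The scripts were tested on simulated data. The members and gene lists were chosen with earlier results of these data known. Genes named are, by smallest p, the first 15 that were higher and the first 10 that were lower, up to 4 members of each list, all members of the 4 olfactory lists, and the first 10 for genotype, in part. Gene coordinates are those of the deposited table.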

Additional observations from a re-analysis of the deposited data

Results flagged for a closer look

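Among 40 genes and list sums examined in the 7 S100a5-high libraries, 4 had 1 library far from the other 6. The list sums contain many of the single genes and all share the same libraries, so this number is not compared with a chance rate. Mki67 was included by name, and its class difference rested on the same library, so its flag is a description only. Mki67, a marker of dividing cells, stood at 17.8 CPM in wild-type replicate 10, against 1.96 CPM in the next library. Slc32a1, the vesicular GABA transporter, stood at 145 CPM in wild-type replicate 10, against 97.9 CPM in the next library. Synpr, the synaptic vesicle protein synaptoporin, stood at 235 CPM in wild-type replicate 8, against 140 CPM in the next library. Nr4a2, a nuclear receptor of dopaminergic neurons, stood at 43.2 CPM in wild-type replicate 6, the lowest of the class, against 70.1 CPM in the next library. Whether the tissue taken from these mice differed was not tested.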

How the results depend on the processing

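The 6 higher genes (5 of them members of the 4 olfactory lists) became 0 (0 members) with filterByExpr by genotype, under which only 1 of the 6 was testable among 9192 genes. They became 3 (3 members) with filterByExpr by class, where 3 of the 6 were testable, and 10 with no filter. Without covariates there were 10 (8 members), and with S100a5 as a continuous term 11 (9 members) and 2 lower, among them Ppp1r1b and Syndig1l. The eIF2B HOM mice alone gave 1 (1 member). Batch 1 alone gave 3 members higher and 1 gene lower, Ppp1r1b, and batch 2 alone, whose single S100a5-high library is assumed to vary like the others, gave 4 higher genes, of which Omp was a member and Mki67, Top2a and Dct were not. Leaving out each library in turn gave 4 to 10 higher genes, 3 to 8 members and 0 lower genes. The fewest, 4, came without wild-type replicate 1, 3, 6 or 10, and the most, 10, without wild-type replicate 8, which added Calb2, Dlx1, Mki67 and Cdhr1. Stoml3, Omp and Eomes kept their call without any 1 library. For genotype with the class in the model, batch 1 alone gave 97 higher and 17 lower, batch 2 alone 66 and 18, and the S100a5-low libraries alone, added after seeing the data, 135 higher. Omp was not called in batch 1 alone (adjusted p = 0.0593), and Stoml3, Eomes, Doc2g, Nmb and Acbd7 were not called in batch 2 alone.

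Signs turned for genes that were not called: Atf5 (-0.48) and Trib3 (-0.39) without covariates, Mki67 in batch 1 alone (-0.18) and without wild-type replicate 10 (-0.13, the lowest of its values without 1 library, the highest being 3.18 without wild-type replicate 4), and in batch 2 alone Ppp1r1b (0.14), Baiap2 (0.15), Klf5 (0.16), Cx3cl1 (0.10) and Trib3 (-3.21). The causes were not tested. No paired analysis was possible because nothing in the labels pairs the mice. Depth limits the receptors and the 7 untested sensory neuron genes, which had 4 to 47 counts in all.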
